A study of Mus musculus with 8 samples.

Results

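The non-Hox homeobox genes described here are 87 of the 21887 protein-coding genes of the mouse RefSeq annotation on chromosomes 1 to 19, X and Y. They were chosen by symbol alone, as the numbered genes of the sine oculis-type, Dlx, Msx, En, Barx, Lhx, Pax, Irx, Meis, Pbx, Gbx, Emx, Otx, Pitx, Tlx, Lbx, Cux, Onecut, Satb, Zfhx and Nkx families. The rule used no measured value. The study mapped chromatin binding of ZFP281, a zinc-finger transcription factor, by ChIP-seq in MMTV-HER2/Neu mice, in which the MMTV promoter drives the HER2/Neu oncogene in the mammary epithelium. The primary tumour (PT) group held 3 ZFP281 libraries from mice older than 20 weeks that carried primary tumours, with tissue labelled as breast tumour. The early lesion (EL) group held 3 ZFP281 libraries from mice of 14 to 18 weeks without a palpable tumour, with tissue labelled "mammary lung" although the growth protocol names mammary glands. Both groups were on the FvB background and carried the oncogene, and in both the digested cells were grown for 7 days as spheres in ultra-low adhesion plates. Each group also had 1 input library, not analysed here. The labels call the libraries biological replicates but do not say how many animals gave each, so the spread between libraries may be partly technical. A wild-type mammary gland was not among the groups.

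Homeobox genes encode transcription factors that bind DNA through a homeodomain and are known for setting cell and tissue identity in the embryo. The TALE class holds the Pbx and Meis proteins, which bind DNA together with Hox and other homeodomain proteins, and the Iroquois (Irx) proteins. Other families are known for particular organs, such as Pax6 for the eye, Nkx2-5 for the heart and Six2 for the kidney. A few of the genes chosen by symbol, such as Pax1 and Pax9, encode a DNA-binding paired domain and lack a homeodomain. ZFP281 is known as a regulator of the pluripotent state that binds G-rich sequence.

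What was deposited for each library is a list of peak summits, each a single position with a score, and a gene is called bound below where a summit lay within a stated distance of either of its annotated ends. The lists of PT replicates 1, 2 and 3 held 2897, 4030 and 6033 summits, and those of EL replicates 1, 2 and 3 held 8588, 15770 and 7055. Values below follow this replicate order. Because list length differed with the group, the main counts are given also for lists of equal length, made of the 2897 top-scoring summits of each library, which is the whole list of PT replicate 1. A percentile gives a summit's rank by score within its own list; a higher percentile means a higher score. Read depth is unknown, since no read counts come with the lists. Lists differ in length, so percentiles are set side by side as descriptions only. With 3 libraries against 3, a two-sided exact permutation test cannot go below 0.1, so no single gene can pass 0.05.

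Sequences of 5 promoters are shown because summits lay next to these start sites, in all 6 libraries for Irx2, Lhx4, Pbx2 and Six5 and in the 3 EL libraries for En1. Each is the 250 bases before the RefSeq start on the gene's own strand, 5′ to 3′, from the RefSeq promoter table on GRCm38.p6. They lie at chr13:72628570-72628819 on the plus strand for Irx2, chr1:155742028-155742277 on the minus strand for Lhx4, chr17:34592009-34592258 on the plus strand for Pbx2, chr7:19094294-19094543 on the plus strand for Six5 and chr1:120602237-120602486 on the plus strand for En1. Capitals mark each match to GGGAGGG or its reverse complement CCCTCCC.
Irx2: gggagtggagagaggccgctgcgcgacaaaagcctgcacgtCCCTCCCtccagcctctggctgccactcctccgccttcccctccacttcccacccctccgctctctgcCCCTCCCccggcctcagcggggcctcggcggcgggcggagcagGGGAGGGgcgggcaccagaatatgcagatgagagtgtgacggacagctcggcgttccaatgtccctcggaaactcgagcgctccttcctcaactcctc
Lhx4: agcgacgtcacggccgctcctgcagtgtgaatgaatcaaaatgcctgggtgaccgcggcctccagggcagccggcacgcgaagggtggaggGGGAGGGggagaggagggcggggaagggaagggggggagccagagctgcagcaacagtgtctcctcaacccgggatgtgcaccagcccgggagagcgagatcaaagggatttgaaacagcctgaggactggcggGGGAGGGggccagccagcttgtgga
Pbx2: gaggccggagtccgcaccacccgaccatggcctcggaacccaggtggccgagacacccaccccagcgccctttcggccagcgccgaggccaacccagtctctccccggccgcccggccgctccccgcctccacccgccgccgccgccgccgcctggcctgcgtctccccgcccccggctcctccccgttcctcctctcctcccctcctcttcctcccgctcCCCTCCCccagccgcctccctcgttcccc
Six5: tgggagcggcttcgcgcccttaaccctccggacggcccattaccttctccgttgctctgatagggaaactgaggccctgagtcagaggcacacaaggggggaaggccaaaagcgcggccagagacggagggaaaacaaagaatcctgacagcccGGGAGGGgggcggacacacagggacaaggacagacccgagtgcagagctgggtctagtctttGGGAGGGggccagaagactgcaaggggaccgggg
En1: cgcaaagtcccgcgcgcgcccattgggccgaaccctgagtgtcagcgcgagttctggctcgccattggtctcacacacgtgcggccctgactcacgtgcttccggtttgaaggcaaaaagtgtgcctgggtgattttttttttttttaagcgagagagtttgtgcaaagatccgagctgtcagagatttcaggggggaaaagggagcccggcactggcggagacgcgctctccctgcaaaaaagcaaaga

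The letters GGGAGGG, on either strand, stood 3 times in the 250 bases of Irx2, 2 times in those of Lhx4, 2 times in those of Six5, 1 time in those of Pbx2 and 0 times in those of En1. In Irx2 the matches lay 209 to 203, 141 to 135 and 98 to 92 bases before the start, next to summits 160 to 234 bases before it. The Lhx4 summits, the Six5 summits shared by all 6 libraries and the En1 summits before the start lay further upstream than the printed stretch. Those of Pbx2, a second set of En1 and 1 Six5 summit of EL replicate 2 lay past the start. Promoter windows of 300 bases, 250 before to 50 after a start, were at hand for 58 of the 87 genes, as 74 windows. GGGAGGG occurred in 28 of these 74 windows (37.8%), against 24.9% of the 21263 windows of all protein-coding genes. The longer GGGGAGGGG, which contains GGGAGGG, occurred in 12 of the 74 (16.2%), against 7.42% of all windows. The median GC content was 61% in the homeobox windows, against 56.3% in all windows, with medians of 19 and 13 CpG pairs. Among homeobox genes with a summit within 20 kb in at least 1 library, 40% of windows held GGGAGGG, against 34.5% for those without, so the letters were about as frequent in both sets. A match describes the letters only.

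In full lists the homeobox genes as a set were bound at shares near or above those of all genes in both groups. EL lists held more bound genes of both kinds. Within 1 kb of a boundary, PT replicates had 7, 8 and 9 bound homeobox genes, and EL replicates had 15, 26 and 11. The group means were 8 ± 1 in PT and 17.3 ± 7.77 in EL (SD, n = 3 each). As shares of the 87 genes these were 8.05, 9.20 and 10.3% in PT and 17.2, 29.9 and 12.6% in EL. Of all protein-coding genes, 5.76, 7.53 and 11.1% were bound in PT and 13.5, 20.8 and 11.7% in EL, in the same order of libraries. The homeobox share was the larger one in all libraries but PT replicate 3.

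Within 20 kb, 13, 18 and 24 homeobox genes were bound in PT and 34, 52 and 26 in EL, or 18.3 ± 5.51 and 37.3 ± 13.3 (SD, n = 3 each). In PT the shares lay close to those of all genes, at 14.9, 20.7 and 27.6% of homeobox genes and 15.8, 20.4 and 27.6% of all genes. In EL they were 39.1, 59.8 and 29.9% of homeobox genes and 33.1, 46.3 and 29.1% of all genes. At equal list length the groups overlapped: 7, 6 and 6 homeobox genes in PT and 5, 6 and 5 in EL were bound within 1 kb, and 13, 14 and 11 in PT and 9, 13 and 12 in EL within 20 kb. The means within 20 kb were then 12.7 ± 1.53 in PT and 11.3 ± 2.08 in EL, or 14.6% and 13.0% of the genes, against 15.9% and 16.4% of all genes. Summits within 20 kb of a homeobox gene made up 0.602% ± 0.105 of a PT list and 0.570% ± 0.0659 of an EL list, and 0.610% ± 0.0797 and 0.460% ± 0.0399 at equal length. The difference in full lists was smaller than the spread between libraries, and changed sign without PT replicate 2 or without EL replicate 3, to -0.00219 and -0.00547 percentage points.

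**Figure D1:**
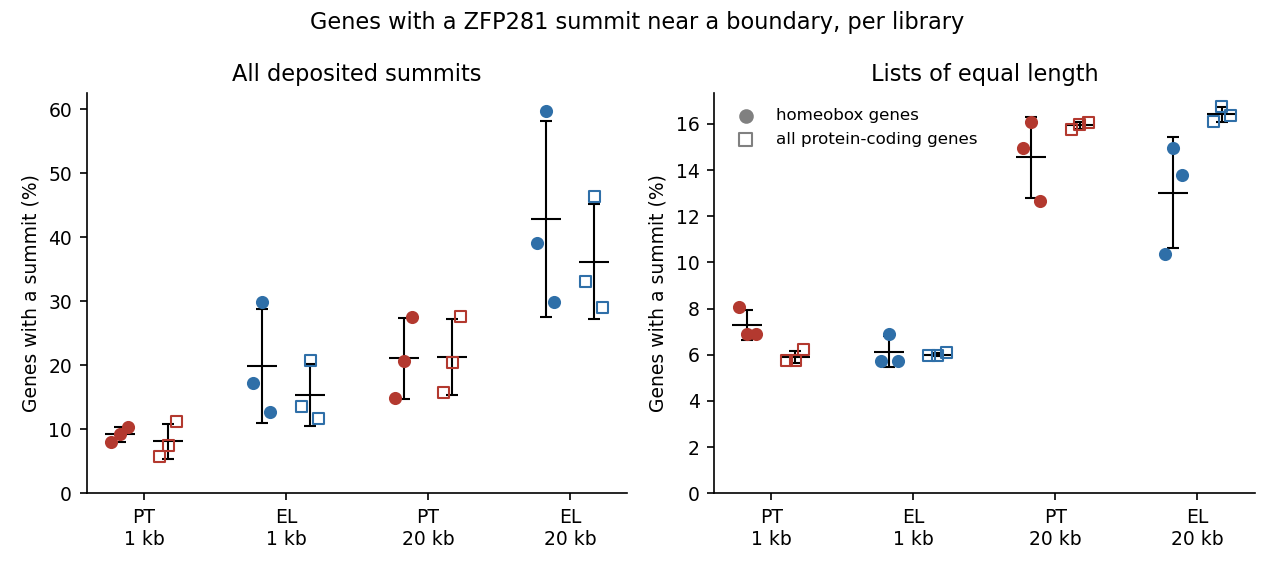
Percent of genes with a ZFP281 summit within 1 kb or 20 kb of a boundary (vertical axis) in PT and EL libraries, for the 87 homeobox genes (filled circles) and all 21887 protein-coding genes (open squares), in all deposited summits (left) and in lists of 2897 summits (right); points are libraries, bars the mean and SD of 3. At each distance every EL value of the homeobox genes lies above every PT value in the left panel, and the same holds there for all protein-coding genes. In the right panel the groups overlap for the homeobox genes.

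Homeobox genes also differed from other genes in their surroundings, which bears on any window count. Of the 87, 44 (50.6%) had no other protein-coding gene within 20 kb, against 24.6% of all genes, and their median length was 8.04 kb against 17.2 kb. Merging summits no more than 200 bp apart gave 19317 binding regions over all libraries, of which 124 lay within 20 kb of a homeobox gene. In 21 of the 124 the nearest gene was not a homeobox gene. The largest group, 51 regions or 41.1%, was found in EL replicate 2 alone, the library with the longest list, against 33.3% of all regions. Regions in all 6 libraries numbered 8 (6.45%), against 8.14% of all regions. Regions in all 3 EL and no PT libraries numbered 11 (8.87%), against 10% of all regions. The 2 regions in all 3 PT and no EL libraries (1.61%), against 0.704% of all regions, lay at Barx2 and Irx3.

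Few homeobox genes were bound in every library. Within 1 kb these were 3 genes, Pbx2, Pbx3 and Six5, where 4.39% of all genes were bound in all 6 libraries. The same 3 genes remained at equal list length, where the share of all genes was 2.99%. Within 20 kb they were 10 genes, Cux1, Irx1, Irx2, Irx3, Lhx4, Pax4, Pbx2, Pbx3, Six4 and Six5, where the share of all genes was 12.3%. At equal length 5 of them remained, Lhx4, Pax4, Pbx2, Pbx3 and Six5, where the share of all genes was 8.38%. At a score of at least 10 the number within 20 kb was 4, with no share of all genes computed. As shares of the 87 genes these were 3.45% within 1 kb in both kinds of list and 11.5% and 5.75% within 20 kb, at or below the shares of all genes except within 1 kb at equal length.

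Pbx3, which encodes a TALE partner of Hox proteins, had a high-ranked site in every library. Its region at chr2:34372684-34372757, 639 bp outside the upper end of the gene, ranked at percentiles 93.2, 92.6 and 93.8 in PT and 98, 99.1 and 90.5 in EL. Its lowest percentile, 90.5, was above the lowest of any other homeobox site shared by all 6 libraries. Pbx2, its paralogue, had a summit 138, 40 and 448 bp past its start in PT and 102, 179 and 87 bp past it in EL. The percentiles of these summits were 61.0, 72.2 and 84.4 in PT and 93.0, 97.6 and 94.4 in EL, so every EL percentile lay above every PT percentile. Ranks from lists of different lengths cannot show whether binding changed between the groups. A second Pbx2 region in all 6 libraries, at chr17:34604157-34604310, lay 6757 bp beyond the upper end of the gene but 38 bp from Agpat1. Another region, chr17:34576635-34576704, lay 15555 bp outside the lower end and nearest to Notch4, at percentiles 62.2, 79.7 and 58.8 in PT and 54.9 in EL replicate 2. A further 7 genes lie within 20 kb of Pbx2, so its summits cannot be given to it alone. Pbx4 had no summit within 20 kb in any library.

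Six5 encodes a sine oculis-type homeodomain protein and lies next to Dmpk, the gene of myotonic dystrophy. Its summits lay 439, 492 and 452 bp before its start in PT and 531, 477 and 496 bp before it in EL. They ranked at percentiles 61.9, 89.4 and 87.8 in PT and 91.7, 96.6 and 94.7 in EL. Every EL percentile again lay above every PT percentile, in longer lists. The nearest annotated end to this region was that of Dmpk, 238 bp away, so the sequence lies between the genes. Within 20 kb Six5 had 1, 2 and 1 summits in PT and 3, 6 and 3 in EL, the most of any homeobox gene in EL replicate 2.

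Lhx4, a LIM-homeodomain gene known for pituitary development, shows what the boundary rule can miss. Its region at chr1:155742367-155742451 was in all 6 libraries at percentiles 90.7, 93.7 and 93.4 in PT and 82.8, 96.5 and 84.2 in EL. It lay 9275 bp inside the annotated upper end of the gene, and so counted only within 20 kb, but 424, 340 and 371 bp before a RefSeq start in PT and 376, 404 and 415 bp before it in EL. Irx2, an Iroquois gene, had summits 234 and 169 bp before its RefSeq start in PT replicates 1 and 2 and 213 and 160 bp before it in EL replicates 1 and 2. A second Irx2 region 938 to 991 bp past the start, chr13:72629758-72629811, was in all 6 libraries, at percentiles 14.5, 73.1 and 86.8 in PT and 40.4, 79.3 and 60.5 in EL. Both lay more than 4 kb from the annotated ends of the gene.

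Zfhx3, which encodes a large protein with zinc fingers and homeodomains, was among the 30 genes with no summit within 20 kb of a boundary. One of its RefSeq starts lies inside the gene at chr8:108714644, and summits lay 743, 747 and 799 bp past it in PT and 826, 758 and 716 bp past it in EL. These ranked at percentiles 82.2, 93.7 and 92.2 in PT and 82.2, 85.2 and 27.8 in EL. Satb1, a chromatin organiser known from T cells, similarly had summits 432 and 539 bp before an inner start in PT replicates 1 and 2 and 593, 549 and 563 bp before it in the EL replicates, and none there in PT replicate 3. Counted within 1 kb of any RefSeq start, 5 of the 58 homeobox genes with a listed start were bound in all 6 libraries, Irx2, Lhx4, Pbx2, Six5 and Zfhx3, where the share of all 17492 genes with a start was 5%. Emx2 and En1 were bound at a start in all 3 EL and no PT libraries, where the share was 1.9% of all genes, and 0 in all 3 PT and no EL libraries, where it was 0.0343%. Barx2, Irx1, Irx5, Pbx3 and Tlx2 have no listed start and could not be counted in this way. Zfhx3 and Satb1 were singled out after their values were seen.

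In 4 of the 8 regions shared by all 6 libraries, the nearest gene was not a homeobox gene. Besides the regions next to Agpat1 and Dmpk, the Pax4 region lay 9 bp from Arf5 and 18674 bp from Pax4, a gene known for pancreatic beta cells. The region counted for Six4, chr12:73112011-73112216, lay 71 bp from Mnat1 and 1815 bp inside Six4, at percentiles 30.3, 3.66 and 6.51 in PT and 55.5, 83.9 and 40.9 in EL. Cux1, a widely expressed CUT-class gene, was counted in all 6 libraries without any 1 region shared by all. A region nearest to Sh2b2 held its PT summits and 1 summit each of EL replicates 1 and 2, and the summit of EL replicate 3 lay 250 bp outside the upper end of Cux1.

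**Figure D2:**
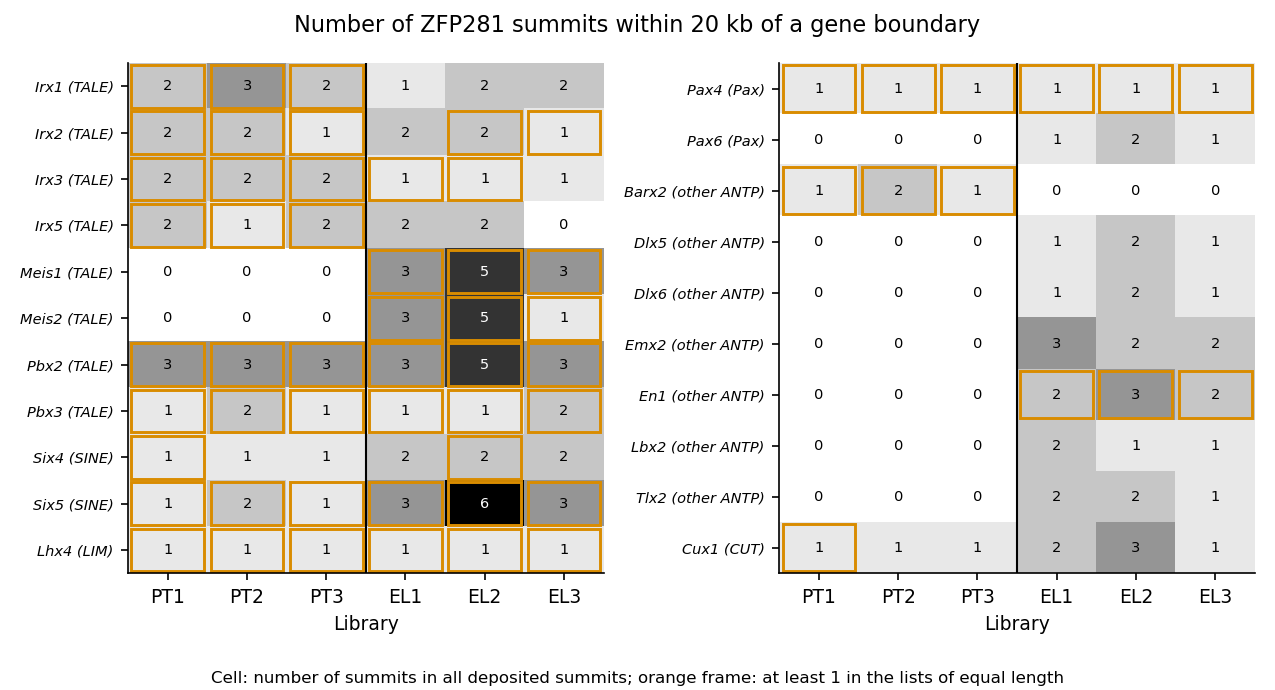
Number of ZFP281 summits within 20 kb of either boundary (cell value and grey level) for 21 homeobox genes, those bound in all 6 libraries or in 1 group only and those with the most summits, in the 3 PT and 3 EL libraries; an orange frame marks at least 1 summit in the lists of 2897 summits. The Irx genes and Barx2 have more framed PT than EL cells, and Meis1, Meis2 and En1 have framed EL cells only.

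A second group of homeobox genes had summits in the EL lists and none in the PT lists. Within 1 kb, Emx2, En1, Meis1 and Tlx2 had summits in all 3 EL and no PT libraries, 4 genes where 1.94% of all genes did so. Within 20 kb, Dlx5, Dlx6, Lbx2, Meis2 and Pax6 joined them, 9 genes where the share of all genes was 4.92%. At equal list length 1 gene remained within 1 kb, En1, where the share was 0.379%, and 3 within 20 kb, En1, Meis1 and Meis2, where it was 1.52%. Without EL replicate 3 the counts in full lists were 8 within 1 kb and 15 within 20 kb. Leaving out an EL library asks less of each gene, so these counts could not fall. With the longest list left out and the others cut to equal length, the counts were 1 and 3, and at a score of at least 10 they were 2 and 6. Shares of all genes were not computed for these alternatives.

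En1, which sets the midbrain-hindbrain border and the ventral limb, carried the clearest of these sites. Its first region, chr1:120602120-120602128, spanned 9 bp over the 3 EL libraries and lay 367, 359 and 363 bp before the start. It ranked at percentiles 86.2, 95.4 and 85.9 in EL, was in all 3 EL lists of equal length, and had no PT summit. A second region, chr1:120603051-120603155, lay 564 to 668 bp past the start at EL percentiles 72.8, 65.0 and 74.4. Within 20 kb En1 had 0, 0 and 0 summits in PT and 2, 3 and 2 in EL (PT minus EL -2.33, exact permutation p = 0.1). Its paralogue En2 had 1 summit, in EL replicate 2.

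Meis1 and Meis2 encode TALE proteins that bind DNA together with Pbx and Hox proteins, and Meis1 is known for its role in leukaemia. Meis1 had 0, 0 and 0 summits within 20 kb in PT and 3, 5 and 3 in EL, and Meis2 had 0, 0 and 0 in PT and 3, 5 and 1 in EL. For both genes the groups did not overlap (PT minus EL -3.67 and -3.00, exact permutation p = 0.1 for each). The highest-ranked Meis1 region, chr11:18877753-18877808, lay 2620 bp outside the lower end of the gene, on the far side from its starts, at EL percentiles 82.8, 85.6 and 79.0. A further Meis1 region, chr11:19020448-19020574, lay 797 bp outside the upper end at EL percentiles 58.5, 66.1 and 47.5. The leading Meis2 region, chr2:116066114-116066148, lay 1389 bp inside the upper end at EL percentiles 67.8, 89.9 and 77.6. The first Meis1 region and the Meis2 region were in the equal-length lists of all 3 EL libraries. Meis3 had no summit within 20 kb in any library.

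The other EL-only genes rested on weaker or scattered summits, none of which was in a list of equal length. Emx2, a gene of cortex and urogenital development, had a summit within 1 kb of its start in each EL library, but 624 bp before it in replicate 1, 236 bp before it in replicate 2 and 320 bp past it in replicate 3. Their percentiles were 10.8, 67.1 and 36.6, and the only Emx2 region shared by the 3 EL libraries lay 4639 bp beyond the upper end of the gene. Tlx2, a gene of enteric neurons, shared a region with Lbx2 at chr6:83070615-83070713, 390 bp from Tlx2 and 15652 bp from Lbx2, at EL percentiles 24.9, 54.9 and 50.5. Dlx5 and Dlx6, neighbours known for jaw and bone development, shared chr6:6872258-6872361 at EL percentiles 6.73, 76.8 and 33.3. The Pax6 region, chr2:105689608-105689749, lay inside Pax6, 8661 bp from its upper end, but nearer to an annotated end of Elp4, 7641 bp away. Tlx2 with Lbx2, and Dlx5 with Dlx6, were thus counted from shared summits, so the 9 genes are not independent of each other.

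Marker genes of fibroblasts and adipocytes were also bound more often in the EL lists. Of 10 such genes, 0, 1 and 1 were bound within 1 kb in PT and 6, 7 and 5 in EL, where 5.76 to 11.1% of all genes were bound in PT and 11.7 to 20.8% in EL. At equal length they were 0, 0 and 0 in PT and 1, 4 and 5 in EL, where 5.75 to 6.21% of all genes were bound in PT and 5.96 to 6.09% in EL. Col1a1, Col1a2 and Dcn were bound within 1 kb in all 3 EL and no PT libraries, where the share of all genes was 1.94%. At equal length only Col1a1 was, where the share was 0.379%. Of 8 leukocyte markers 0, 0 and 0 were bound in PT and 1, 1 and 0 in EL, of 5 endothelial markers 0 in every library, and of 5 lung epithelial markers 0, 0 and 1 in PT and 1, 1 and 1 in EL. A summit is not expression, so these lists do not show which cells were present, and the part of cell composition in the EL-only sites was not tested. Fewer cells of a type with a bound site and less binding per cell cannot be told apart in bulk chromatin.

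**Figure D3:**
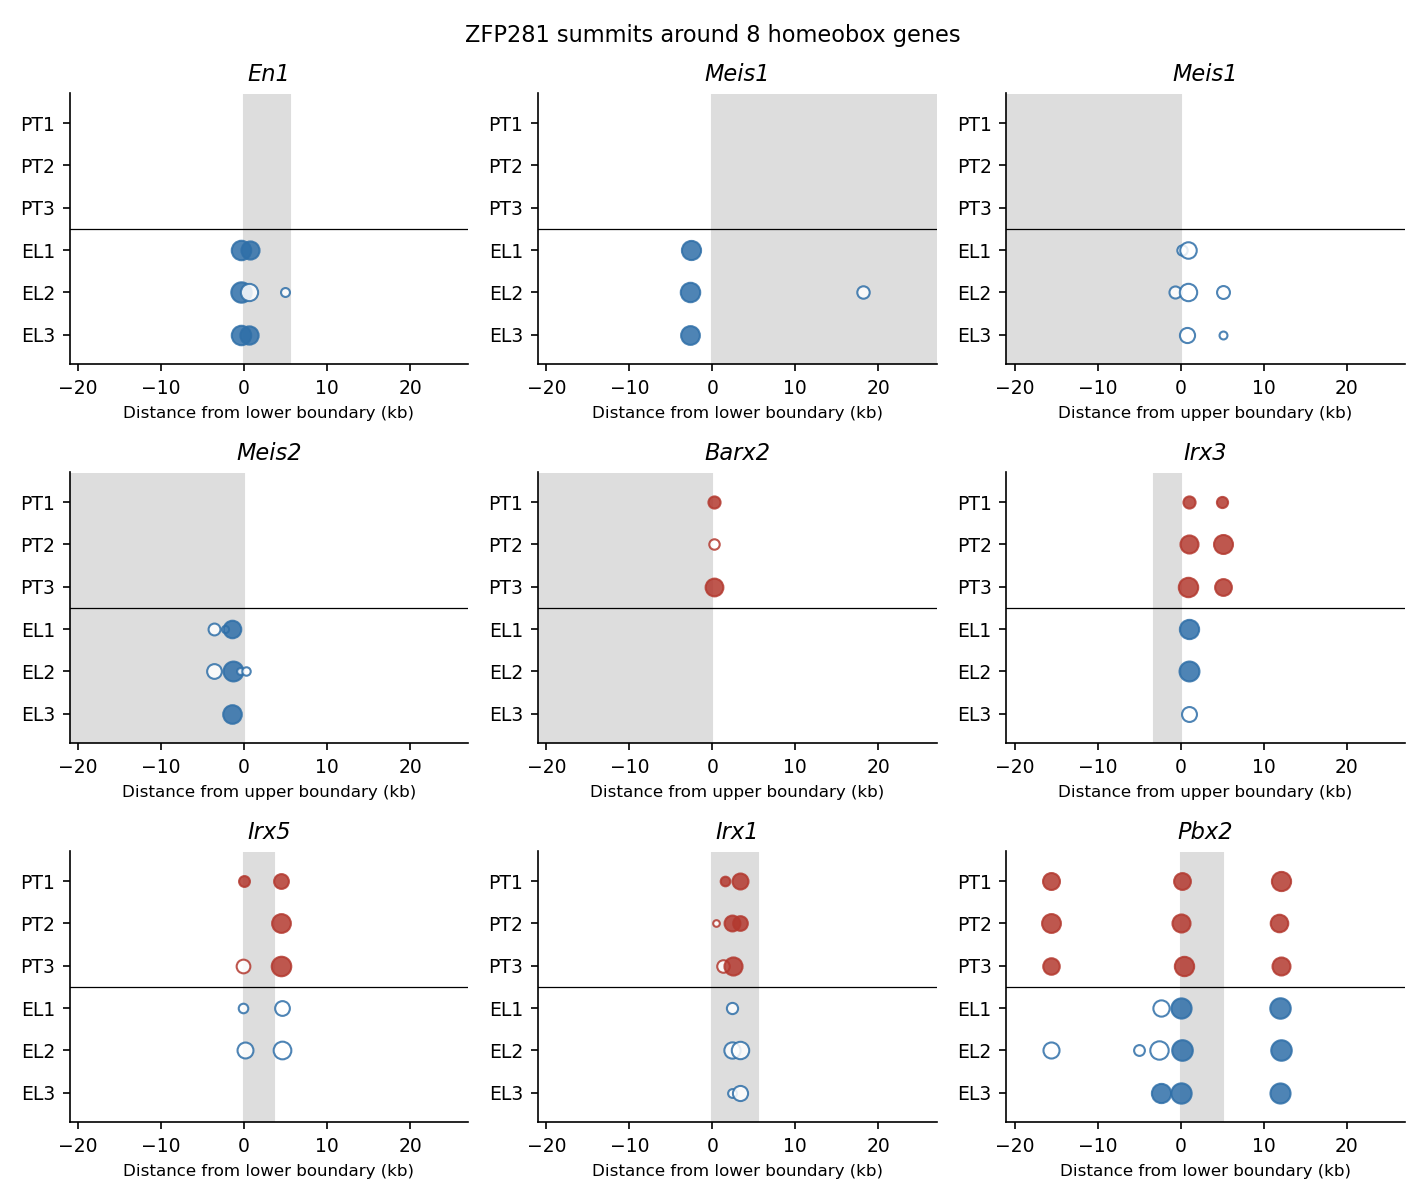
Summit positions as distance in kb from the lower or upper annotated end of 8 homeobox genes (grey, gene body; Meis1 shown at both ends), with PT libraries above and EL libraries below; circle area grows with the percentile, and filled circles are in the lists of 2897 summits. En1, Meis1 and Meis2 have EL summits only, Barx2 has PT summits only, and the site about 5 kb beyond Irx3 is in the 3 PT libraries only.

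Genes with summits in the PT lists and none in the EL lists were fewer in full lists, where EL lists were longer, and as many at equal length. Within 1 kb, Barx2 was the only homeobox gene with a summit in all 3 PT and no EL libraries, where 0.0457% of all genes, 10 in number, did so. It was also the only one within 20 kb, where the share was 0.183%. At equal length the genes were Irx5 within 1 kb, where the share was 0.338%, and Barx2, Irx1 and Irx5 within 20 kb, where it was 1.26%. Without PT replicate 1 the count within 20 kb in full lists was 2. Leaving out a PT library could not lower this count, and its share of all genes was not computed.

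Barx2, known for epithelial and muscle development, had its PT region at chr9:31913443-31913515, 158 bp outside the upper end of the gene. It ranked at percentiles 26.6, 16.8 and 69.7 in PT, and no EL list held a summit within 20 kb, although the EL lists were the longer ones. At a score of at least 10, no homeobox gene was bound in all 3 PT and no EL libraries, so Barx2 no longer was. The low rank in PT replicate 2 left that summit out of its equal-length list, where another Barx2 summit 6521 bp outside the lower end stood in its place. Within 20 kb the counts were 1, 2 and 1 in PT and 0, 0 and 0 in EL (PT minus EL 1.33, exact permutation p = 0.1). Barx1 had no summit within 20 kb in any library.

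The Iroquois genes pattern the nervous system, heart and limbs. Irx1, Irx2 and Irx4 lie on chromosome 13 and Irx3, Irx5 and Irx6 on chromosome 8, and 5 of the 6 had a summit within 20 kb in some library. Summed over the 6 genes there were 8, 8 and 8 summits in PT and 6, 7 and 4 in EL. At equal length the sums were 8, 6 and 5 in PT and 1, 2 and 1 in EL, so the sums did not overlap either way. Over all genes, mean summits per gene within 20 kb were 0.291 in PT and 0.637 in EL in full lists, and 0.199 and 0.203 at equal length. Sums of other families, such as the Dlx and the sine oculis-type genes, were also apart in full lists, with EL higher. How often sums over sets of other genes are apart was not computed. The Irx sums come from neighbouring genes of shared clusters and carry no test, and gene by gene only Irx3 separated the groups in full lists.

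Irx3, known from the obesity-associated Fto locus, had a site in all 6 libraries at chr8:91802595-91802664, 941 bp outside its upper end. Its percentiles were 26.6, 72.2 and 85.4 in PT and 83.9, 90.5 and 45.9 in EL. A second site, chr8:91806683-91806794 and 5029 bp outside that end, was in PT only, at percentiles 20.7, 81.0 and 61.0, and was in all 3 PT lists of equal length. The number of Irx3 summits was 2, 2 and 2 in PT and 1, 1 and 1 in EL (PT minus EL 1.00, exact permutation p = 0.1). At a score of at least 10, 0 homeobox genes had more summits in every PT library, so Irx3 no longer did.

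Irx5 had 2, 1 and 2 summits in PT and 2, 2 and 0 in EL in full lists, which overlap, and 2, 1 and 1 in PT and 0, 0 and 0 in EL at equal length. Its main region, chr8:92362222-92362385, lay 766 bp outside the upper end, at percentiles 44.8, 79.1 and 86.6 in PT and 44.5 and 68.8 in EL replicates 1 and 2. In full lists the mean difference of 0.33 became -0.33 without EL replicate 3. Irx1 had 2, 3 and 2 summits in PT and 1, 2 and 2 in EL in full lists, and 2, 2 and 1 in PT and 0, 0 and 0 in EL at equal length. Its summits lay inside the gene, the most shared region at chr13:71960548-71960668 being in PT replicates 2 and 3 and all EL libraries, at percentiles 53.3 and 72.7 in PT and 21.0, 56.7 and 8.59 in EL. For Irx1 and Irx5 the EL summits thus stood in the full lists but outside the 2897 top-scoring ones. Irx2 did not separate the groups, with 2, 1 and 1 summits in PT and 0, 1 and 1 in EL at equal length, and Irx6 had none.

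**Figure D4:**
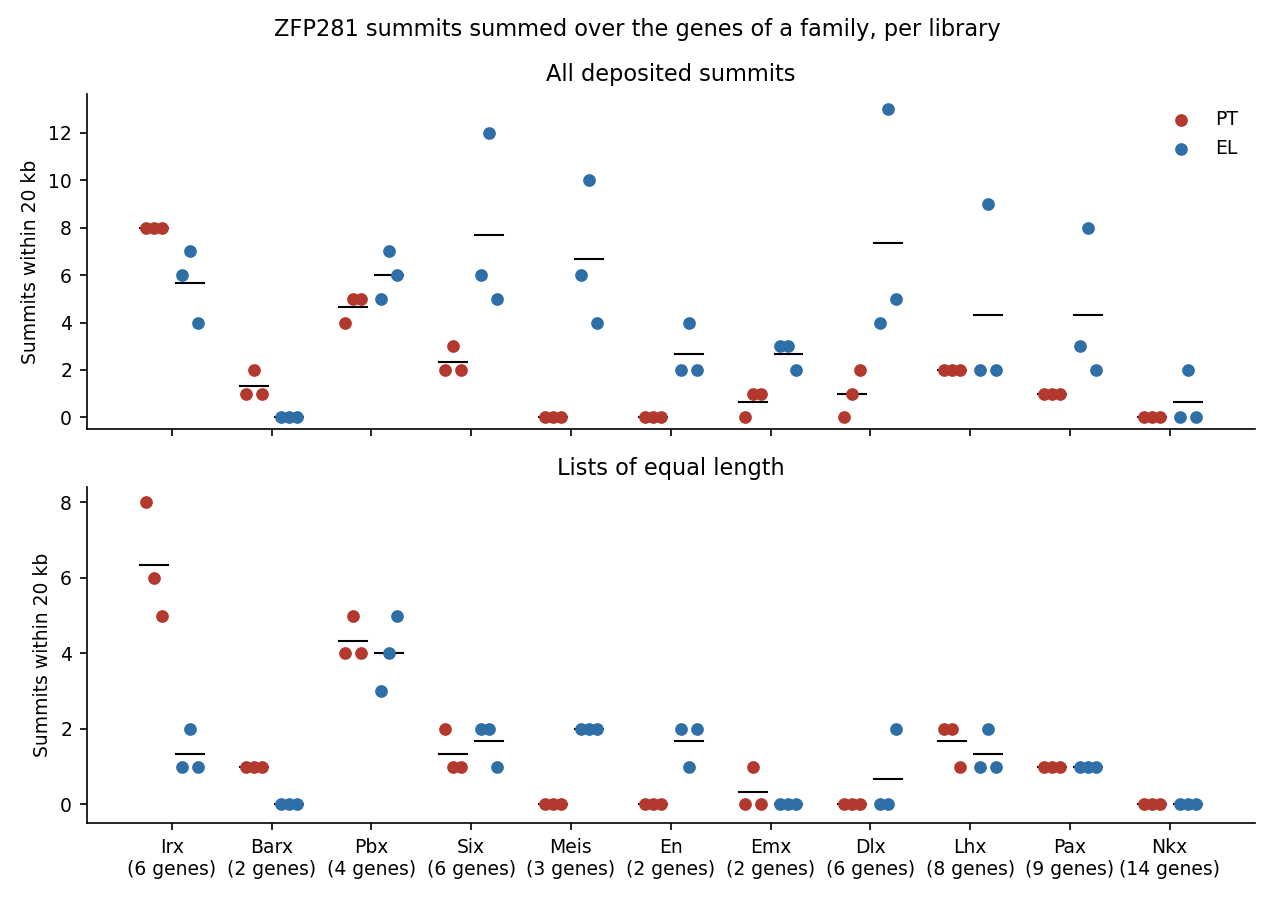
Number of ZFP281 summits within 20 kb summed over the genes of 11 homeobox families (vertical axis) in PT and EL libraries (points; lines, group means), in all deposited summits (top) and in lists of 2897 summits (bottom). A summit near more than 1 gene of a family, as among the Dlx genes, counts for each. The Irx sums are 8, 6 and 5 in PT and 1, 2 and 1 in EL in the lower panel, and the Meis sums are 0 in PT and 2 in EL in each library.

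By the number of summits within 20 kb, 11 homeobox genes were higher in every EL than in every PT library, where 8.43% of all genes were, namely Dlx5, Dlx6, Emx2, En1, Lbx2, Meis1, Meis2, Pax6, Six4, Six5 and Tlx2. Barx2 and Irx3, 2 genes, were higher in every PT library, where 0.251% of all genes were. At equal length 3 genes were higher in EL, En1, Meis1 and Meis2, where the share was 1.9%, and 4 were higher in PT, Barx2, Irx1, Irx3 and Irx5, where it was 1.64%. These were the genes that reached the smallest exact p of 0.1, 13 in full lists and 7 at equal length. Without EL replicate 3, 20 genes were higher in EL in full lists. Leaving out a library could not lower this number, and its share of all genes was not computed.

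Among the other families, the Nkx genes were rarely bound. All 14 Nkx genes, among them Nkx2-1 of lung and thyroid and Nkx2-5 of the heart, lacked a summit within 1 kb in every library. Within 20 kb only Nkx2-3 and Nkx6-3 had one, in EL replicate 2 alone, at percentiles 9.30 and 4.12. None of the 14 was bound in any PT list or in any list of equal length. Of the 9 Pax genes, 6 had a summit within 20 kb in some library, 1, 1 and 1 in PT and 3, 6 and 2 in EL, and at equal length 1 in each library. The gene in PT, and in every list of equal length, was Pax4, whose region lay at Arf5. The 6 Dlx genes, which act in jaw, limb and forebrain, summed to 0, 1 and 2 summits in PT and 4, 13 and 5 in EL, but to 0, 0 and 0 in PT and 0, 0 and 2 in EL at equal length. A summit near more than 1 Dlx gene counted for each, so these sums exceed the number of distinct summits. At equal length the counts of EL replicate 3 were the same summit, near both Dlx3 and Dlx4. The 6 sine oculis-type genes summed to 2, 3 and 2 summits in PT and 6, 12 and 5 in EL, and to 2, 1 and 1 in PT and 2, 2 and 1 in EL at equal length. Of the 13 TALE genes, 10 had a summit within 20 kb in some library, 6, 6 and 8 genes in PT and 9, 9 and 8 in EL, and at equal length 6, 6 and 6 in PT and 5, 7 and 6 in EL. All 7 CUT-class genes did so, 1, 1 and 3 in PT and 4, 6 and 2 in EL, and at equal length 1, 0 and 0 in PT and 0, 0 and 0 in EL. Beside these counts, 15.8 to 27.6% of all genes were bound within 20 kb in PT and 29.1 to 46.3% in EL in full lists, and 50.6% in no library. At equal length 15.8 to 16.1% of all genes were bound within 20 kb in PT and 16.1 to 16.8% in EL. Beside the sums, all genes had on average 0.291 summits each in PT and 0.637 in EL in full lists, and 0.199 and 0.203 at equal length.

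Some paralogues differed in which library held them. Emx1, at 425 to 512 bp before its start, had summits in PT replicates 2 and 3 and EL replicate 2, at percentiles 69.4 and 11.2 in PT and 12.8 in EL, unlike the EL-only Emx2. Zfhx2 had 0, 1 and 2 summits in PT and 2, 3 and 1 in EL, with a region 6455 bp outside its lower end in PT replicates 2 and 3 at percentiles 65.9 and 63.6. Zfhx4 had summits in EL replicates 1 and 2. In full lists 16 of the 57 genes with a summit within 20 kb had it in EL replicate 2 alone, and 10 of those with one within 1 kb. That library had the longest list, and the share of all genes bound in it alone was not computed. The remaining 30 of the 87 had none in any library, where 50.6% of all genes had none, and within 1 kb 58 had none, where the share was 76.9%.

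The 30 genes without a summit within 20 kb included Barx1, Gbx1, Irx6, Lhx3, Lhx5, Lhx6, Meis3, Nkx1-1, Nkx1-2, Nkx2-1, Nkx2-2, Nkx2-4, Nkx2-5, Nkx2-6, Nkx2-9, Nkx3-2, Nkx6-1, Nkx6-2, Otx2, Pax1, Pax7, Pax9, Pbx4, Pitx1, Six6, Tlx1, Tlx3 and Zfhx3. Their median length was 6.76 kb, against 10.03 kb for the 57 genes with a summit, and 15 of the 30 and 29 of the 57 had no other gene within 20 kb.

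Genes whose products work with homeodomain proteins were counted in the same way. Of 23 partners and cofactors, 4, 5 and 6 were bound within 1 kb in PT and 8, 10 and 7 in EL, where 5.76 to 11.1% of all genes were bound in PT and 11.7 to 20.8% in EL. At equal length they were 4, 5 and 3 in PT and 3, 3 and 3 in EL, where 5.75 to 6.21% of all genes were bound in PT and 5.96 to 6.09% in EL. In all 6 libraries these were Pknox1, a TALE partner of Pbx, Tgif1, a TALE repressor, and Lmo4, a LIM-only protein known in breast epithelium. They were 3 of the 23, where the share of all genes was 4.39%. Pknox1 and Tgif1 were in all 6 lists of equal length, where the share of all genes was 2.99%. Eya4, a coactivator of sine oculis-type proteins, was bound in all 3 EL and no PT libraries, where the share was 1.94%. Tgif2 was bound in 3 PT libraries and 1 EL library. Of 54 other homeobox genes outside the Hox clusters, 2, 2 and 3 were bound within 1 kb in PT and 4, 12 and 4 in EL, and 2, 2 and 3 in PT and 2, 0 and 0 in EL at equal length. Hmbox1 and Mkx, 2 of the 54, were in all 6 full lists, where the share of all genes was 4.39%.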

How the data were processed

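ZFP281 ChIP-seq libraries of 3 PT and 3 EL samples were analysed from the peak summit lists the authors deposited. Per the submitters' processing notes, mm10, Bowtie2 2.3.4.3 and Picard were used. No label, note or file header used here names the peak caller, its threshold or how inputs entered. The lists were deposited one per library. Each holds a position and a score from the authors' files, and from its values alone the score may be a -log10 q-value. Reads were 150 bp paired ends per the labels' protocols. Read depth is unknown, so no interval needing it is given.

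Positions are 1-based. Gene ends came from the RefSeq table and promoter windows from the RefSeq promoter table (GRCm38.p6, whose chromosomes are those of mm10), for chromosomes 1 to 19, X and Y. Summits within 1 kb or 20 kb of either end of a gene were counted with Python 3.11.15, numpy 2.4.6 and pandas 2.3.3, in full lists and in the 2897 top-scoring summits of each, and the counting was tested on simulated data. Single genes were compared by exact permutation over 20 relabellings. Groups came from sample titles. The genes and lists were chosen with earlier results of these data known. Any homeobox gene could be named, and results for some of them are not reported here. Full values were planned for those bound in all 6 libraries or in 1 group only and for the 10 with most summits. Alternatives were list length, score minimum, windows, gene starts, gene bodies, family choice, a replicate block and leaving out each library. The replicate numbers were not used to pair the samples in the main comparisons.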

Additional observations from a re-analysis of the deposited data

How the results depend on the processing

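At equal list length, the mean number of homeobox genes bound, PT minus EL, turned from -9.33 to 1.00 within 1 kb and from -19 to 1.33 within 20 kb. There the counts were 1 gene bound in EL only within 1 kb, 5 bound in all 6 libraries, 3 in EL only and 3 in PT only within 20 kb, 3 with more summits in EL and 4 in PT, and the share of summits near homeobox genes differed by 0.150 points. With EL replicate 2 also left out, chosen after seeing the data, EL-only counts were 1 within 1 kb and 3 within 20 kb, and 3 genes had more summits in EL. A score of at least 10 left 2 EL-only and 0 PT-only genes within 1 kb, 4 bound in all 6 libraries and 0 PT-only within 20 kb, and 6 with more summits in EL and 0 in PT. Genes bound in all 6 libraries numbered 1 within 500 bp, 8 within 5 kb, 5 within 1 kb of a RefSeq start and 19 within 50 kb. Shares of all genes were computed only within 1 kb and 20 kb, with all libraries and no score minimum, and at RefSeq starts. Counts at other settings therefore cannot be set against all genes. EL-only genes numbered 2 within 500 bp and 2 at RefSeq starts, where PT-only genes numbered 0. Barx2, the PT-only gene by its boundaries, has no listed start, so it could not be counted at starts. Leaving out 1 library gave 4 to 8 EL-only genes within 1 kb, 9 to 15 within 20 kb, 1 to 2 PT-only genes within 20 kb, 11 to 20 genes with more summits in EL, and a share difference of -0.00547 to 0.0925 points. Cux1 turned to 0.33 and Pbx2 to 0.67 summits, PT minus EL, at equal length, and Irx5 to -0.33 without EL replicate 3. Of 151 alternative values for the gene set, 120 were called the same, 27 moved and 4 reversed. Many of these values are counts, which have no direction. For single genes 171 were called the same, 15 weakened and 3 reversed. Differences of 0, as for Irx2 and Pbx3 summits, were called the same even where the alternative was not 0. The cause was not tested.

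With the replicate block, 12 genes had more summits in EL and 2 in PT in each same-numbered pair, and it changed no other call. The smallest exact p over 8 sign flips was 0.25. Same-numbered libraries deviated together with correlations of 0.0279, -0.0657 and -0.106, and the other PT and EL pairs gave -0.108 to 0.179. These values gave no sign of pairing by number. Whether same-numbered libraries shared a preparation was not tested.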
